A study of Homo sapiens with 16 samples.

Results

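Intermediate filaments of neurons and of neural progenitors were followed through 7 genes, NEFL, NEFM, NEFH, INA, PRPH, NES and VIM, taken by gene symbol from an expression table of 19898 genes; each of the 7 was found once, and all 7 passed the filter on low values. RNA came from SH-SY5Y, a human neuroblastoma line, after 15 days of differentiation to what the labels call dopamine-like neurons. The 4 groups of 4 libraries were untreated cells in 2D dishes (untreated 2D), untreated cells in a 3D silk-collagen scaffold (untreated 3D), and cells in each format given 1 mM 1-methyl-4-phenylpyridinium (MPP), an inhibitor of mitochondrial complex I, for 48 hours from day 13 (MPP 2D and MPP 3D). The stated aim was to learn how the culture microenvironment shapes disease traits of Parkinson type. All groups were 1 tumour-derived line given the same differentiation. The labels do not state that libraries sharing a group were separate cultures, so a p-value here measures the spread between libraries, which may be technical. Cells in 2D were detached with an enzyme mix before freezing while scaffolds were frozen whole, so handling and culture format cannot be told apart.

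Intermediate filaments are rope-like polymers that give a cell its resistance to stretching. In axons, the light, medium and heavy neurofilament chains (NEFL, NEFM, NEFH) assemble with alpha-internexin (INA) or, in peripheral neurons, with peripherin (PRPH), and their amount and side arms are known to set axon calibre. NEFL is the core chain without which the others assemble poorly, and NEFH is known as the chain that comes up last as neurons mature. Nestin (NES) and vimentin (VIM) co-assemble in neural progenitors, and VIM is also the main filament protein of mesenchymal cells.

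Libraries held 24589435 to 46359070 reads in genes, fewest in untreated 3D (24589435 to 34658873). Mitochondrially encoded genes took a median of 11.3% of reads in untreated 2D, 4.51% in untreated 3D, 1.61% in MPP 2D and 2.79% in MPP 3D. Some 3D libraries stood apart within their groups. Untreated 3D replicate 3 did so in its residual spread over genes (0.64 on the log2 scale against 0.50 to 0.55 in the others). MPP 3D replicate 3 did so in the summed level of 12 proliferation markers (20937 against 12485 to 15770). Untreated 3D replicate 1 did so in its mitochondrial share of reads (7.97% against 3.83% to 4.51% in the others). Of 12 dopamine neuron markers, 6 were in the table. SLC6A3, LMX1A, FOXA2, EN1, KCNJ6 and ALDH1A1 had no row under these symbols, so they could not be analysed. The 6 in the table summed to 4002 to 4268 in untreated 2D, 22017 to 24623 in untreated 3D, 3941 to 4265 in MPP 2D and 12034 to 15173 in MPP 3D. The 7 noradrenergic markers, led by DBH, which makes noradrenaline, summed to 160356 to 282409 over all groups. So the summed count of the noradrenergic markers, not corrected for length, stood far above that of the 6 dopamine neuron markers in each library. It did not hold gene by gene: the noradrenergic marker SLC6A2 averaged 1101 over the 16 libraries and the listed dopamine neuron marker DDC 5510. The dopamine neuron sum rested mostly on DDC, SLC18A2 (mean 2816) and TH (2691). LMX1B, PITX3 and NR4A2 averaged only 52.7, 50.8 and 6.14. Whether these marker levels bear on the filament genes was not tested.

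The genes that the results turn on are spread over the genome. In GENCODE 29 on GRCh38, NES (Entrez 10763) lies at chr1:156668763-156677397 on the minus strand. VIM (7431) lies at chr10:17228259-17237593, INA (9118) at chr10:103277163-103290351, PRPH (5630) at chr12:49293252-49298686 and NEFH (4744) at chr22:29480230-29491390, all on the plus strand. NEFL (4747) and NEFM (4741) are neighbours on 1 chromosome. The table gives 1 value per gene, so isoforms were not resolved. Antisense genes overlap NEFL, NEFM, NEFH, VIM and PRPH, and AC125611.4 covers the whole 5435 bases of PRPH; counting by strand is not stated there, so reads of a gene and of its antisense partner cannot be told apart. VIM-AS1, opposite VIM and looked up after its values were seen, had normalised counts of 2.12 to 53.7, far under those of VIM. AC125611.4 was not analysed here.

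INA, NES and VIM, which lie on separate stretches of the genome, were all lower in the scaffold, as were NEFL, NEFM and NEFH. The 250 bases before the starts of INA, NES and VIM are shown. They were read from RefSeq on GRCh38.p14, in the direction of transcription. Of the 7 genes, 4 matched the promoter table, and of those only INA, NES and VIM are shown. Capitals mark the GC box, GGGCGG or its reverse complement CCGCCC, the core of sites bound by SP-family factors. The windows are chr10:103276888-103277137 (plus strand) for INA, chr1:156677408-156677657 (minus strand) for NES and chr10:17227991-17228240 (plus strand) for VIM.
INA: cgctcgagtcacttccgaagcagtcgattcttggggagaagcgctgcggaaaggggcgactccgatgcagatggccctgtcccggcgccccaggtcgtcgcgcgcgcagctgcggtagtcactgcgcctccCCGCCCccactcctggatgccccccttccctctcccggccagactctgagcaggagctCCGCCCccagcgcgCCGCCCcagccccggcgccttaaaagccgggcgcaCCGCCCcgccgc
NES: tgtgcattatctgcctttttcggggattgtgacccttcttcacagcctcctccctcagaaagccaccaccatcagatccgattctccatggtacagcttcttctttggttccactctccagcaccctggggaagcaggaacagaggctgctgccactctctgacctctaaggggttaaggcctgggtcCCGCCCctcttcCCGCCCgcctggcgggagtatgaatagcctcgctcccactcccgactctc
VIM: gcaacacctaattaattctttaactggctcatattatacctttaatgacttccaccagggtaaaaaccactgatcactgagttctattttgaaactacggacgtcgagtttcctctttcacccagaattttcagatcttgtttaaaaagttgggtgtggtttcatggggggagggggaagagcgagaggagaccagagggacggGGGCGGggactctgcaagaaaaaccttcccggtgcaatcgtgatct
INA held 4 GC boxes, NES 2 and VIM 1, and the G and C content of the windows ran from 72.8% in INA through 58.0% in NES to 46.0% in VIM. Neither a TATA box (TATAAA) nor a CCAAT box (CCAAT) was found in any of the 3 windows on either strand. Over 35116 promoter windows of the same length, 42.6% held a GC box, 10.7% a TATA box and 32.0% a CCAAT box, so a GC box is common and its presence in all 3 is a description.

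Per kilobase of merged exons, 3 genes dominated in untreated 2D: NES at 4413 ± 262 normalised reads per kb (SD, n = 4), INA at 4324 ± 339 and NEFL at 4134 ± 213. The ranges of these 3 levels overlapped. NEFM stood at 1610 ± 86.6 per kb, VIM at 1018 ± 96.0 and NEFH at 845 ± 38.1. PRPH was at 14.3 ± 4.58 per kb, by far the lowest, on 46 to 88 reads per library. The place of VIM depends on its length: over its principal transcript of 2.135 kb in place of 5.158 kb of merged exons it stood at 2460 ± 232 per kb, above NEFM. In untreated 3D the leading gene by mean was INA at 2988 ± 268 per kb, with NES at 2575 ± 424 and NEFL at 2162 ± 176. In MPP 2D it was NEFL at 4307 ± 252 per kb, above NES at 3828 ± 180 and INA at 3070 ± 177. In MPP 3D INA (2139 ± 202 per kb) and NEFL (2108 ± 95.7) overlapped, with NES at 1816 ± 239. These orders also depend on length. Over principal transcripts VIM was at 3097 ± 126 per kb in MPP 2D, beside INA. In MPP 3D it was at 1794 ± 157, beside NES, and NEFL was at 2236 ± 101, above INA by mean.

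**Figure D1:**
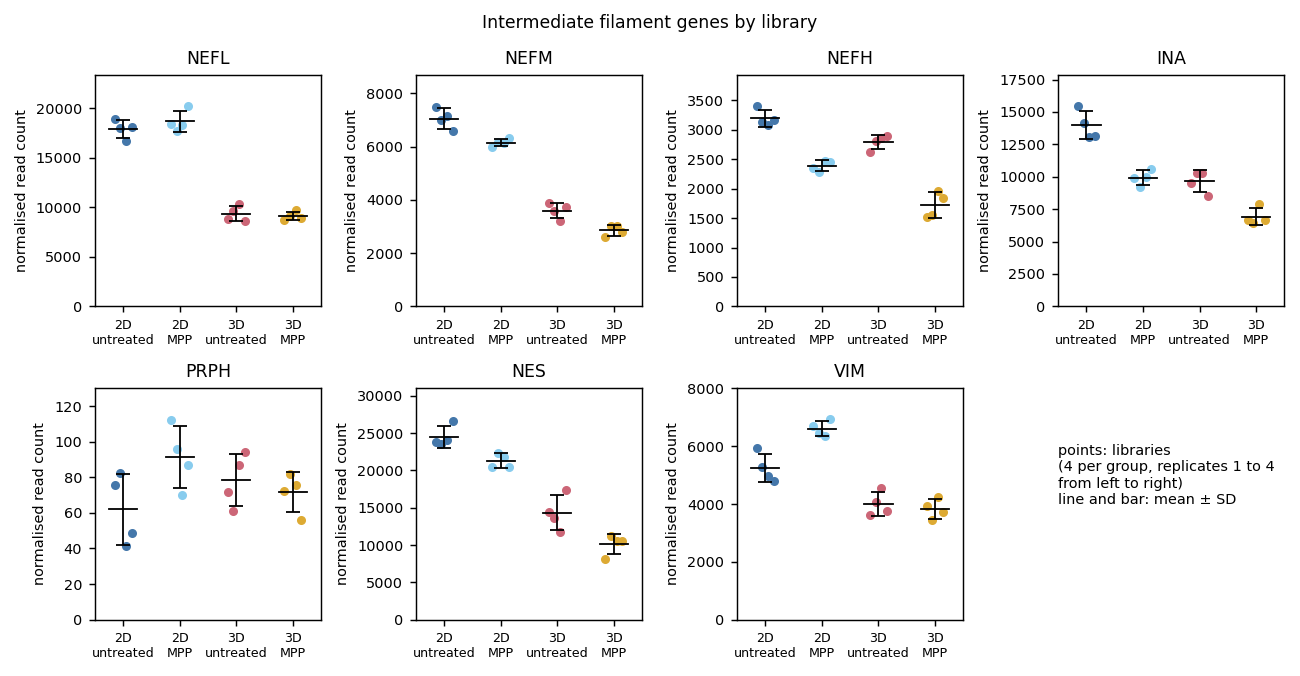
Normalised read counts (read counts divided by 1 size factor per library, y axis from 0) of the 7 genes in each of the 16 libraries, by group (x axis); points are libraries, lines and bars the mean ± SD of 4. NEFL and NEFM in 3D sit below every 2D library, VIM is highest in MPP 2D, and the 4 groups of PRPH overlap.

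The first comparison asks how the filament genes of untreated cells differed between scaffold and dish cultures, with the difference in handling included. The scaffold cultures held less filament mRNA: 6 of the 7 genes were lower in untreated 3D than in untreated 2D and none was higher. NEFL and NEFM had the largest decreases, followed by NES, INA and VIM, while NEFH was barely lower. Of all 16984 genes tested, 46.1% were called (23.2% higher and 23.0% lower), and the median log2 change was -0.53 over the 7 genes against 0.010 over all. In bulk RNA, fewer cells of a type and less RNA per cell cannot be told apart.

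Among the neurofilament chains, NEFL was at 18868, 18005, 16644 and 18073 normalised counts in untreated 2D (replicates 1 to 4) and at 8839, 9664, 10295 and 8645 in untreated 3D. The 2 sets are far apart, with the lowest 2D library well above the highest 3D one. NEFL fell by 0.94 on the log2 scale (limma, SE 0.067, adjusted p = 1.49e-10), and thus dropped by 47.8%. NEFM was at 7491, 7011, 7135 and 6572 in untreated 2D and at 3868, 3567, 3208 and 3724 in untreated 3D, again with a wide gap. NEFM fell by 0.98 (limma log2 change, SE 0.069, adjusted p = 1.43e-10), and the 2 decreases differed by less than their SE. NEFH, the heavy chain whose side arms space filaments apart, was at 3407, 3131, 3082 and 3169 against 2622, 2807, 2869 and 2889. All 4 of its 3D libraries were below the 2D libraries, but by little: NEFH fell by 0.19 (limma log2 change, SE 0.079, adjusted p = 0.0496). That call is at the edge of the threshold and was lost without any 1 of 12 of the 16 libraries (adjusted p = 0.0517 to 0.137; log2 -0.21 to -0.16), namely each of the untreated 2D and MPP 2D libraries, untreated 3D replicates 1, 2 and 3 and MPP 3D replicate 4.

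INA, the partner of the triplet in central axons, was at 15440.5, 14173, 13101 and 13173 in untreated 2D and at 9507, 10321, 10303 and 8487 in untreated 3D. The groups did not overlap, and INA fell by 0.53 (limma log2 change, SE 0.078, adjusted p = 7.79e-06). PRPH, the partner in peripheral neurons, was at 75.8, 82.2, 41.6 and 48.7 against 71.8, 61.1, 87.0 and 94.0. Its groups overlapped, and it was not called (limma log2 change 0.37, 95% interval -0.15 to 0.89, adjusted p = 0.243). This interval, resting on few reads, spans both a small decrease and a near doubling.

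Both progenitor filaments were lower too. NES was at 23753, 23579, 24082 and 26687 in untreated 2D and at 14441, 13589, 11780.3 and 17434 in untreated 3D. Untreated 3D varied most of all groups for this gene, yet its highest library stayed under the lowest 2D library, and NES fell by 0.79 (limma log2 change, SE 0.099, adjusted p = 9.97e-07). VIM was at 5931, 5296, 4970.4 and 4813 against 3637, 4055, 4564 and 3774. VIM fell by 0.39 (limma log2 change, SE 0.081, adjusted p = 4.24e-04), with a narrow gap between the groups. In all, 6 of the 7 genes showed no overlap between the groups, as did 39.7% of all genes tested. The mitochondrial share of reads moved with the format, and with libraries scaled to equal totals of nuclear genes the 6 genes were lower by more (NEFL -1.03, NEFM -1.06, NEFH -0.28, INA -0.62, NES -0.88, VIM -0.48 in log2).

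**Figure D2:**
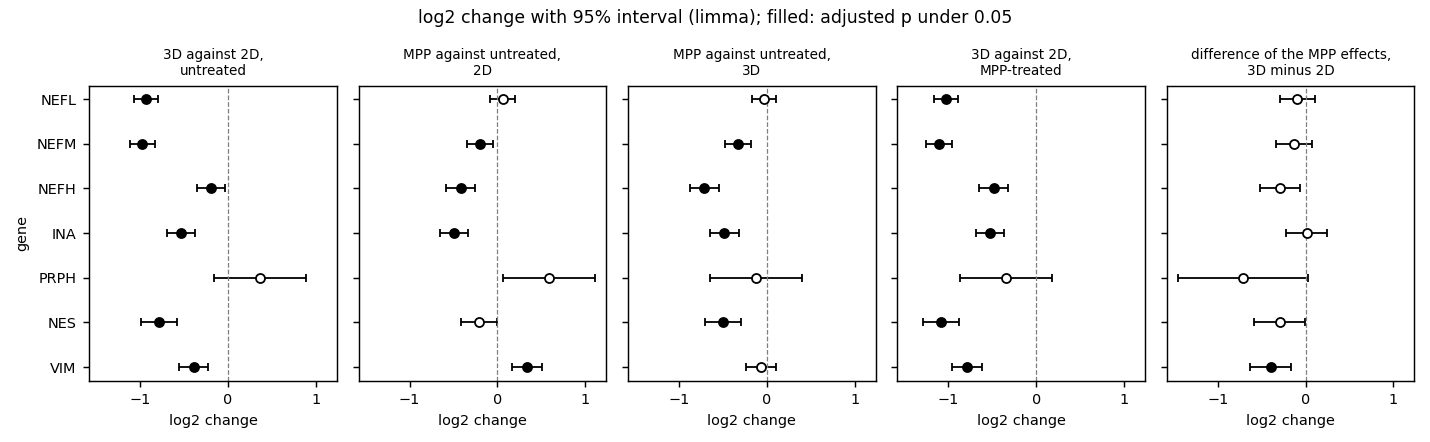
limma log2 change (x axis) of the 7 genes (y axis) in 5 comparisons, as points with 95% intervals over 16 libraries; filled points passed an adjusted p of 0.05. Both 3D-against-2D panels have 6 filled points left of 0, NEFL lies near 0 in both MPP panels, and VIM is filled to the right in 2D with MPP and is the filled point in the difference of the MPP effects.

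The next comparison asks what MPP did to the filament genes of dish cultures. MPP split the family: NEFM, NEFH and INA fell, VIM rose, and NEFL and NES were not called. So 4 of 7 genes were called, 1 higher and 3 lower, where 34.5% of all genes were called (17.7% higher, 16.9% lower). The median log2 change was -0.20 over the 7 genes and 0.020 over all genes. The scale of the libraries matters here: with equal library totals, mitochondrial reads included, the median of all genes moved to 0.12 and the share of called genes that were higher from 51.1% to 70.3%.

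NEFL was at 18409.9, 17648, 18326 and 20202 in MPP 2D, within or a little above the untreated 2D values. Its log2 change was 0.059 (limma, 95% interval -0.080 to 0.20, adjusted p = 0.529), and the sign turned with quantile normalisation (-0.034). NEFM was at 5982, 6162, 6129 and 6305, each under every untreated 2D library. NEFM fell by 0.20 (limma log2 change, SE 0.069, adjusted p = 0.0312), which was lost with equal library totals (-0.093, adjusted p = 0.328) and without any 1 of untreated 2D or MPP 2D replicates 1, 2 and 3 (adjusted p = 0.0576 to 0.0995). NEFH was at 2359.7, 2278, 2474 and 2451, well under its untreated values, and fell by 0.42 (limma log2 change, SE 0.079, adjusted p = 2.71e-04).

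INA was at 9881, 9204, 9988 and 10599 in MPP 2D, a range that overlaps that of untreated 3D and lies under untreated 2D. INA fell by 0.49 (limma log2 change, SE 0.078, adjusted p = 4.30e-05), and thus dropped by 28.9%. PRPH was at 112, 96.1, 70.2 and 87.1, higher by 0.59 in log2 but overlapping the untreated values (limma, SE 0.25, adjusted p = 0.0763). PRPH passed the threshold with equal library totals (0.69, adjusted p = 0.0369) and without untreated 2D replicate 2 (0.74, adjusted p = 0.0400), so the side on which it falls rests on scaling and on 1 library.

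Of the progenitor filaments, VIM rose under MPP in dishes. VIM was at 6687, 6471, 6338 and 6955, above every other library of the study. VIM rose by 0.34 in log2 (limma, SE 0.081, adjusted p = 0.00266), a gain of 26.2%. NES was at 20449.7, 22390.2, 21853 and 20415, below all 4 untreated 2D libraries, but its change did not pass the threshold (limma log2 -0.20, 95% interval -0.41 to 9.43e-04, adjusted p = 0.116). Fitted on the 2 groups alone or after quantile normalisation it passed (log2 -0.20 and -0.29, adjusted p = 0.0101 and 0.0250). Non-overlap held for 5 of the 7 genes (NEFM, NEFH, INA, NES and VIM) and for 38.8% of all genes.

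In the scaffold, the question is the same, against untreated 3D. MPP lowered 4 of the 7 genes there, NEFM, NEFH, INA and NES, and raised none, where 34.6% of all genes were called (17.0% higher, 17.6% lower). NEFL and VIM stayed near their untreated 3D values. The median log2 change was -0.33 over the 7 genes and 0.0033 over all.

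NEFL was at 8732, 9117, 9702 and 8960.1 in MPP 3D, inside the untreated 3D range. Its log2 change was -0.034 (limma, 95% interval -0.17 to 0.10, adjusted p = 0.733), with a sign that turned under 3 scalings. NEFM was at 2589.7, 3034, 3013 and 2795 and fell by 0.33 (limma log2 change, SE 0.069, adjusted p = 7.77e-04). NEFH was at 1512, 1552, 1969 and 1839.7, the lowest values of this gene anywhere in the study. NEFH fell by 0.71 (limma log2 change, SE 0.079, adjusted p = 3.57e-07), and thus dropped by 38.9%, the largest called MPP change among the 7 genes.

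INA was at 6632, 6465, 7882 and 6660.2, under all untreated 3D libraries, with replicate 3 above the other 3. INA fell by 0.48 (limma log2 change, SE 0.078, adjusted p = 5.01e-05), close to its change in dishes. PRPH, at 72.2, 82.1, 75.9 and 56.1, did not pass (limma log2 -0.12, 95% interval -0.65 to 0.40, adjusted p = 0.742). NES was at 8157, 11177, 10492 and 10537 and fell by 0.50 (limma log2 change, SE 0.099, adjusted p = 4.25e-04). VIM was at 3926, 3442, 4235 and 3721, overlapping untreated 3D, with a log2 change of -0.064 (limma, 95% interval -0.23 to 0.10, adjusted p = 0.580). The 4 called genes were also the 4 whose groups did not overlap, against 27.6% of all genes.

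Between the formats under MPP, the gap seen in untreated cells was again present for the same 6 genes, with 38.9% of all genes called (19.0% higher, 19.9% lower) and a median log2 difference of -0.79 over the 7 genes against 0.0088 over all. NEFL differed by -1.03 in log2 (limma, SE 0.067, adjusted p = 4.58e-11), NEFM by -1.11 and NES by -1.09 (limma adjusted p = 2.54e-11 and 1.28e-08). VIM stood at -0.79, INA at -0.52 and NEFH at -0.48 (limma adjusted p = 7.82e-08, 1.44e-05 and 4.05e-05). All 6 had groups that did not overlap, against 37.5% of all genes, and PRPH was not called (-0.34, limma adjusted p = 0.305). This comparison and the earlier ones share libraries, so their values are set side by side and not counted as separate evidence.

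Whether MPP acted differently in the 2 formats was tested as a difference of the MPP effects, 3D minus 2D. VIM was the 1 gene of 7 that was called, where 15.3% of all genes were (8.32% lower): its MPP changes differed by -0.40 in log2 (limma, SE 0.11, adjusted p = 0.0197), between a change of 0.34 in 2D and of -0.064 in 3D. That call was lost with libraries scaled to equal nuclear totals (-0.30, adjusted p = 0.0632), which leaves 0 of 7 genes called. NEFH (-0.29, 95% interval -0.52 to -0.060, limma adjusted p = 0.0834) and NES (-0.30, -0.59 to -0.0053, adjusted p = 0.169) did not pass. NEFH passed without MPP 3D replicate 3 (-0.36, adjusted p = 0.0236) and NES without untreated 3D replicate 3 (-0.38, adjusted p = 0.0429). These 2 libraries were among those named above as standing apart. With both left out, an alternative chosen after seeing the data, VIM, NEFH and NES all passed (-0.38, -0.35 and -0.41, adjusted p = 0.0162, 0.0310 and 0.0450). INA (0.010, 95% interval -0.22 to 0.24), NEFL (-0.093, -0.29 to 0.10), NEFM (-0.13, -0.34 to 0.072) and PRPH (-0.71, -1.45 to 0.030) were not called, with limma adjusted p of 0.966, 0.573, 0.414 and 0.198.

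The order of the 4 groups was not the same for each gene. NEFL had 2 levels, a 2D level (18646 ± 1092 normalised counts in MPP 2D and 17897 ± 923 in untreated 2D, SD, n = 4) and a 3D level (9361 ± 764 in untreated 3D and 9128 ± 414 in MPP 3D). Neighbours within each level overlapped. NEFM stepped down through untreated 2D, MPP 2D, untreated 3D and MPP 3D (7052 ± 379, 6145 ± 133, 3592 ± 284 and 2858 ± 209) with no overlap between neighbours. NES took the same order (24525 ± 1456, 21277 ± 999.8, 14311 ± 2359 and 10091 ± 1326), also without overlap. In NEFH the middle pair was the other way round, with untreated 3D (2797 ± 121) above MPP 2D (2391 ± 90.0), and untreated 2D (3197 ± 144) and MPP 3D (1718 ± 222) at the ends. INA had untreated 2D on top (13972 ± 1094), MPP 2D (9918 ± 571) and untreated 3D (9654 ± 866) overlapping in the middle, and MPP 3D lowest (6909.8 ± 654). VIM went from MPP 2D (6613 ± 269.6) to untreated 2D (5253 ± 495) and then to both 3D groups, which overlapped (4007 ± 409.9 untreated and 3831 ± 335 with MPP). For PRPH all neighbours overlapped, from 91.4 ± 17.6 in MPP 2D to 62.1 ± 19.9 in untreated 2D. The step of NES from untreated 2D to MPP 2D was not called (limma adjusted p = 0.116). That of NEFM lost its call with equal library totals (limma adjusted p = 0.328). Of all genes, 38.8% showed no overlap with MPP in 2D and 27.6% with MPP in 3D, so these orders are a description.

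Ratios of 2 genes within a library do not depend on how libraries were scaled. They are ratios of mRNA read counts, without correction for length, and filament protein was not measured here. Relative to NEFL, NEFH was higher in the scaffold, where both genes had lower counts and NEFL more so. In untreated cells the log2 changes were -0.94 for NEFL and -0.19 for NEFH. With MPP, NEFH was lower relative to NEFL. The NEFH to NEFL ratio of reads averaged 0.179 (0.174 to 0.185) in untreated 2D, 0.300 (0.279 to 0.334) in untreated 3D, 0.128 (0.121 to 0.135) in MPP 2D and 0.188 (0.170 to 0.205) in MPP 3D. No pair of groups in the 4 comparisons overlapped. The INA to NEFL ratio moved the same way, at 0.780, 1.03, 0.532 and 0.756 in that order of groups, with no overlap in the 4 comparisons. The NEFM to NEFL ratio averaged 0.395 (untreated 2D) and 0.387 (untreated 3D), overlapping, and 0.330 in MPP 2D and 0.313 in MPP 3D. The fall with MPP was without overlap in 2D, while in 3D untreated replicate 3 at 0.312 lay among the MPP values.

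The progenitor filaments were set against NEFL in the same way. The VIM to NEFL ratio averaged 0.293, 0.428, 0.355 and 0.420 in the same order of groups, higher in 3D at either treatment and higher with MPP in 2D, each without overlap. The NES to NEFL ratio (1.37, 1.55, 1.15 and 1.10) overlapped in all 4 comparisons. NES to VIM averaged 4.71 in untreated 2D and 3.23 in MPP 2D, lower with MPP without overlap, and overlapped in the other 3 comparisons (3.63 in untreated 3D and 2.66 in MPP 3D).

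**Figure D3:**
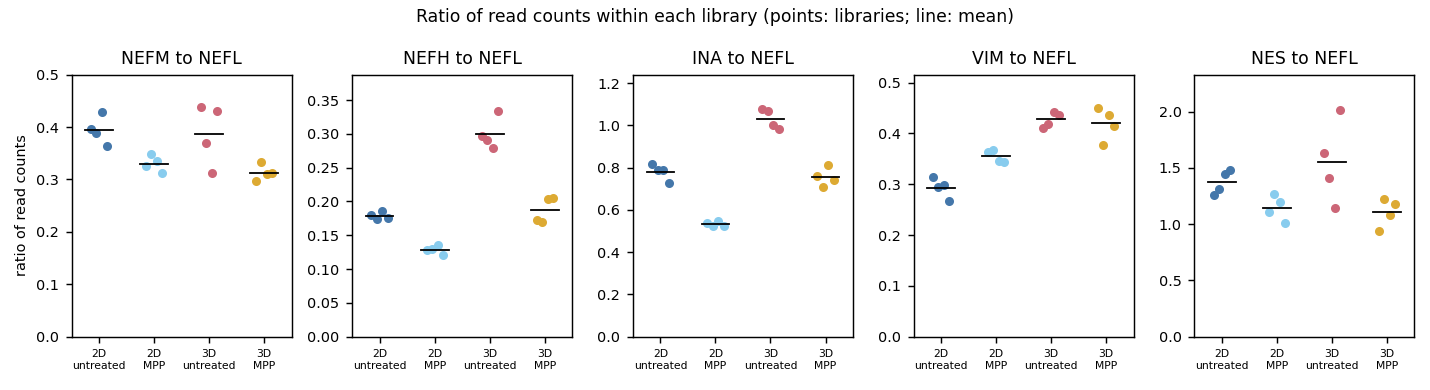
Ratios of read counts to NEFL within each library (y axis from 0) for NEFM, NEFH, INA, VIM and NES by group (x axis); points are the 4 libraries of a group and lines their mean. NEFH and INA are higher in 3D than in 2D and lower with MPP in both formats, while for NES the groups overlap in each of the 4 comparisons made (3D against 2D at either treatment, MPP against untreated in either format).

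Genes whose profile was most like each filament gene were ranked by the root mean square difference of their deviations from their own mean log2 value over the 16 libraries, among 14030 genes whose mean was at least 50. For NEFL the nearest were SNX7 (0.072), IL13RA1 (0.073) and AZIN1 (0.077), against a spread of NEFL itself of 0.50. For NEFM they were NCAN (0.082), MGAT5B (0.096) and NSG2 (0.12), and for NES C1orf216 (0.10), NDRG2 (0.10) and NCAN (0.11). NCAN, which codes for the brain proteoglycan neurocan, was thus near both NEFM and NES. NEFH had GNAI2 (0.096), NXN (0.097) and MCCC2 (0.11), and INA had IFT80 (0.090), PHLDA1 (0.096) and MPP6 (0.10), a gene with no relation to the toxin of similar name. VIM had ELK3 (0.092), XPNPEP1 (0.096) and SCG2 (0.11). For PRPH, LINC01410 (0.24), RALY-AS1 (0.25) and JUND (0.26) were the nearest, against its own spread of 0.36. All points share the same libraries, and the ranking is a description.

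For related genes, changes are limma log2 changes at an adjusted p under 0.05 and levels are mean ± SD of 4 normalised counts. The shares of all genes to read the list counts against were 23.2% higher and 23.0% lower in untreated 3D against 2D, 17.7% and 16.9% with MPP in 2D, and 17.0% and 17.6% with MPP in 3D, with median log2 changes over all genes of 0.010, 0.020 and 0.0033. Of 13 other intermediate filament genes tested, 1 rose and 5 fell in untreated 3D against 2D (median log2 -0.22), 1 rose and 4 fell under MPP in dishes (0.043), and 0 rose and 3 fell with MPP in 3D (-0.088). In the scaffold the epithelial keratin KRT7 fell by 1.12 in log2 (118.8 ± 15.4 to 61.8 ± 34.5 normalised counts) while KRT19, another keratin, rose by 0.81. With MPP in 2D the nuclear lamins LMNB1 and LMNB2 fell by 0.93 and 0.63. In 3D the lamin LMNA fell by 0.86 (9549 ± 561 to 5274 ± 312), and SYNM, synemin, which joins filaments of VIM or neurofilament chains, fell by 0.63 (537 ± 31.3 to 348 ± 40.1). Synemin also differed between the formats in its MPP change (-0.43 in log2, 3D minus 2D), with a limma adjusted p of 0.0477, close to the threshold.

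Of 24 genes tested that link, phosphorylate or degrade filaments, 5 rose and 12 fell in untreated 3D (median -0.18), 6 rose and 8 fell under MPP in dishes (0.039), and 4 rose and 8 fell with MPP in 3D (-0.097). CDK5, a kinase that phosphorylates NEFH and NEFM side arms, fell by 0.75 in the scaffold, by 0.64 with MPP in 2D and by 0.28 with MPP in 3D. Its activator CDK5R2 went from 4782 ± 312 in untreated 2D to 11526 ± 1003 in untreated 3D, a rise of 1.27 in log2. TRIM2, a ubiquitin ligase that binds NEFL, fell by 1.01 in the scaffold. In 3D with MPP the kinase GSK3A fell by 0.44.

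Of 15 motor genes, whose proteins carry filaments and other cargo along axons, 0 rose and 11 fell in untreated 3D (median log2 -0.28), where 23.0% of all genes fell, and the other 4 did not pass. The dynein chain DYNC1I1 fell by 1.69 (351 ± 33.0 to 109 ± 19.6) and the kinesin light chain KLC1 by 0.66. With MPP, 4 rose and 1 fell in 2D, with KIF1A up by 0.44 and KIF5A, the neuronal kinesin heavy chain known to carry neurofilaments, up by 0.38. In 3D, 3 rose and 1 fell with MPP, with DYNC1LI1 and DCTN2 each up by 0.31.

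Of 15 mature neuron markers tested, 2 rose and 11 fell in untreated 3D (median log2 -0.45), among them GAP43, a growth cone protein, which fell by 1.14. RBFOX3, a splicing factor of mature neurons, rose by 1.45 from 46.1 ± 19.8 to 122.6 ± 34.2. With MPP in 2D, 3 rose and 0 fell, with STMN2, which binds tubulin, up by 0.44 and GAP43 by 0.28. With MPP in 3D, 4 rose and 4 fell, with the glycolytic enzyme ENO2 at -1.18 (22273 ± 1044 to 9813 ± 502) and the microtubule protein MAP1B at -1.05.

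Of 14 neural progenitor markers tested, 4 rose and 3 fell in untreated 3D (median log2 0.14), close to the 23.2% and 23.0% of all genes. With MPP, 2 rose and 2 fell in dishes (-0.10), and in the scaffold 3 rose and 5 fell (-0.056). SOX2, which maintains neural progenitors, fell by 2.08 in the scaffold (824 ± 64.7 to 205 ± 70.1), while ID1, an inhibitor of differentiation factors, rose by 1.19. PAX6 fell with MPP in both formats, by 1.20 in 2D and 1.32 in 3D, and ID3 rose in both, by 0.66 and 1.25.

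Markers of the mesenchymal neuroblastoma state, in which VIM is high, were counted beside it. Of 20 tested, 5 rose and 10 fell in untreated 3D (median log2 -0.62 against 0.010 for all genes), with the adhesion receptor CD44 at a log2 change of -3.26 (234.7 ± 43.0 to 25.4 ± 10.3) and the cadherin CDH11 at -2.30. With MPP in 2D, 6 rose and 0 fell (median 0.22), with the membrane-binding ANXA2 up by 0.93 (3135 ± 149 to 5968 ± 146) and the actin ACTA2 by 1.04. With MPP in 3D, 3 rose and 7 fell (0.044), with SNAI1 at -0.83 and FOSL2 at -0.94. In the difference of MPP effects, 0 of the 20 were higher and 7 lower, ANXA2 among them at -0.57, where 8.32% of all genes were lower. The share of higher genes among all those called there moved from 45.7% to 66.9% with equal nuclear totals. The 12 proliferation markers all fell in untreated 3D (MKI67 by 1.24, CENPF by 1.47) and all fell with MPP in 2D (MKI67 by 1.77, AURKB by 1.57), while with MPP in 3D 2 rose and 1 fell. Their summed level was 33371 to 39067 in untreated 2D, 15664 to 17956 in untreated 3D, 12964 to 15335 in MPP 2D and 12485 to 20937 in MPP 3D. Whether this bears on NES and VIM was not tested.

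**Figure D4:**
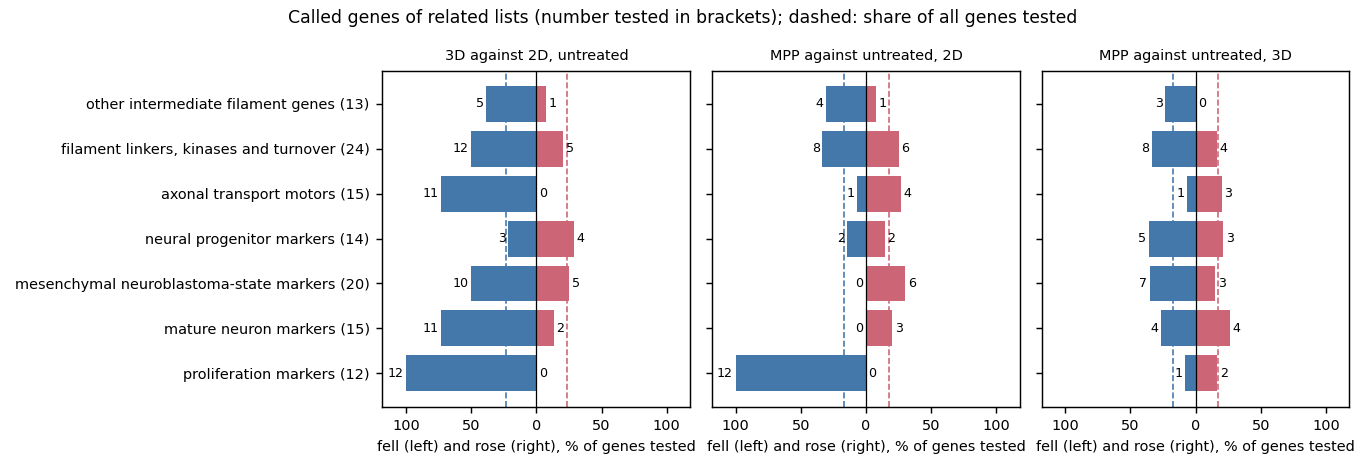
Share of tested genes that fell (left) and rose (right) in 7 related lists, in % of genes tested (x axis), with counts beside the bars and dashed lines at the share of all 16984 genes; 3 comparisons. In untreated 3D 11 of 15 motor genes and 11 of 15 mature neuron markers fell, and all 12 proliferation markers fell there and with MPP in 2D.

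Markers of cell types that hold other filaments were checked beside these results. The dopamine neuron list had 4 of 6 genes risen in untreated 3D, with TH up by 4.02 and DDC by 2.37 in log2; with MPP 2 rose in 2D (TH by 0.79, SLC18A2 by 0.24), and 1 rose and 3 fell in 3D (DDC -2.33, PITX3 -1.08). The noradrenergic list had 2 risen and 4 fallen of 7 in untreated 3D (log2 change of SLC6A2 -4.42), 1 and 4 with MPP in 2D (SLC6A2 -0.88, GATA2 -1.14) and 1 and 3 in 3D (HAND2 -0.58, GATA2 -0.82). The Schwann cell and glia list had 7 of 8 genes in the table and 5 tested. Its summed level ran from 699 to 1117 over the 4 groups, with OLIG2 at 0 reads in untreated 2D and SOX10 at 0 in untreated 3D; in untreated 3D limma called 0, with 0 at an unadjusted p under 0.05 and 0 called by edgeR or DESeq2. In this list 3 rose with MPP in 2D (among them AQP4, 1.29), and 1 rose and 1 fell in 3D (AQP4 0.79, S100B -0.78). The fibroblast list, cells in which VIM is abundant, had 7 of 8 genes in the table, with a summed level of 10082 to 10753 in untreated 2D, 9644 to 10345 in untreated 3D, 10870 to 12148 in MPP 2D and 8368 to 8866 in MPP 3D. The sums of the untreated groups overlapped, where VIM values did not, and the sums of the 3D groups did not overlap, where VIM values did. With MPP in 2D both the sums and VIM were higher than in untreated 2D, without overlap. Under MPP both were lower in 3D than in 2D, without overlap. Of these 7, 3 rose and 3 fell in untreated 3D (COL3A1 0.98, LUM -1.36), 1 rose and 2 fell with MPP in 2D (PDGFRB 0.60, COL3A1 -0.58) and 2 rose and 3 fell in 3D (COL1A1 -0.96, COL3A1 -0.58). The part of any of these cell types in the filament results was not tested.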

How the data were processed

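Poly-A RNA of 16 libraries was sequenced, and titles placed them in 4 groups of 4. The signal the authors deposited is a read count over a DESeq2 size factor for that library. The submitters' processing notes name build GRCh38.p13 and the tools DESeq2, featureCounts, STAR, FastQC and CASAVA 1.8.2. Annotation, settings and strandedness: not given in the sources used here. Whole reads were recovered for 100.0% of values within 0.01 reads. Each gene of the table has at least 11 reads over the 16 libraries.

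Differences were tested in limma 3.58.1 (R 4.3.3, mean-variance trend, log2 of the value + 1) over the 16984 genes that reached 10 in 4 libraries or more. The 4 groups were fitted together, and calls were made where the Benjamini-Hochberg adjusted p, over all genes tested, was under 0.05. A log2 change on this scale understates the change of low genes. The choice of limma, made for values taken as normalised, was kept after whole reads were recovered, and edgeR 4.0.16 and DESeq2 1.42.0 on those reads were alternatives, as were other scalings, pseudocounts and filters, a replicate block, only the groups compared and each library left out. The fit was tested on simulated data. Lengths came from GENCODE 29. Every pair of replicates differed by more than sampling noise (24 pairs, chi-square per degree of freedom from 6.43 up).

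The 7 genes and the gene lists were chosen with earlier results of these data known. Named beside the 7 were, per list and for 3 comparisons (3D against 2D untreated and MPP in each format), the 2 called genes of largest change with a mean of 50 or more, and the 3 genes of most similar profile for each of the 7. CDK5 and GAP43 beyond these comparisons, synemin and ANXA2 in the difference of MPP effects, DBH, VIM-AS1 and AC125611.4 were named after their values were seen. Some genes that this rule names are not reported here.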

Additional observations from a re-analysis of the deposited data

Results flagged for a closer look

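Of 28 sets of 4 libraries (7 genes in 4 groups), 2 held a library far from the other 3, where chance gives about 1 in 20. INA in MPP 3D replicate 3 was at 7882 normalised counts, against 6465 to 6660.2 in the others of its group. NES in untreated 2D replicate 4 was at 26687, against 23579 to 24082. The MPP effect on VIM differed between the formats, at -0.40 in log2 (3D minus 2D, limma adjusted p = 0.0197), with 0.34 in 2D and -0.064 in 3D. That call was lost with equal nuclear totals (-0.30, limma adjusted p = 0.0632), and 15.3% of all genes were called in this comparison.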

How the results depend on the processing

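Of 35 gene results (7 genes in 5 comparisons), 23 kept direction and side of the threshold in each of the 29 alternatives that could be fitted. The exceptions among called genes were NEFH in untreated 3D against 2D and NEFM with MPP in 2D, with the values beside those results, and VIM in the difference of MPP effects with equal nuclear totals. NEFH there also lost its call with equal library totals (adjusted p = 0.0638), with no filter (0.0534), with the replicate block (0.0509) and in edgeR with the block (0.0510). Gains were those of PRPH, NES and NEFH given above. Small changes that were not called turned sign: NEFL with MPP in 2D at -0.0338 (quantile normalisation) and in 3D at 0.0613 (equal library totals), 0.0246 (equal nuclear totals) and 0.0226 (quantile); VIM with MPP in 3D at 0.0316 (equal library totals); NEFL in the difference of MPP effects at 0.0114 (equal nuclear totals) and 0.0564 (quantile); and INA there at -0.0217 with both 3D replicates 3 left out. Leaving out 1 library at a time gave ranges of -0.071 to 0.013 for NEFL and -0.1132 to 8e-04 for VIM with MPP in 3D, and of -0.0544 to 0.044 for INA in the difference. The number of the 7 genes called in the difference was 0 with equal nuclear totals, 1 to 2 with 1 library left out and 3 with both 3D replicates 3 left out; the cause was not tested. Counts of called genes stayed within 1.5 times throughout, but scaling moved their split. With equal nuclear totals the share that was higher went from 50.2% to 38.3% in untreated 3D, from 49.0% to 59.3% with MPP in 3D and from 45.7% to 66.9% in the difference, and with equal library totals from 49.0% to 65.9% with MPP in 3D. Same-numbered libraries did not deviate together (r of -0.11 to 0.090 over 24 pairs, 0 above 0.1, 5 best with their own number). The labels do not say what a number marks, so whether same-numbered libraries were handled together is not known. With the replicate block 7634, 5675, 5706, 6451 and 2436 genes were called in the 5 comparisons, and NEFM with MPP in 2D stayed called (adjusted p = 0.0479). Depth limits PRPH most, at 46 to 139 reads per library.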
